A study of Mus musculus with 12 samples.

Results

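The transcripts of 8 enzymes that write or remove methyl groups on DNA and on histone H3 were followed in mouse bone marrow-derived dendritic cells. The genes were the DNA methyltransferase Dnmt3a, the methylcytosine dioxygenases Tet1, Tet2 and Tet3, the histone methyltransferases Ezh1 and Ezh2, and the histone demethylases Kdm6a and Kdm6b. They were taken by their symbols from a list, as 8 of the 31054 gene identifiers in the count tables, and all 8 passed the filter on low counts that left 13141 genes. The cells were grown from the marrow of wild-type C57BL6 mice and enriched for live cells with surface CD11c on day 7. The 4 groups, each of 3 libraries, were control dendritic cells without an added agent (BMDC), control cells given lipopolysaccharide (LPS), a bacterial cell wall component sensed by Toll-like receptor 4, tolerogenic cells made with VitD3 (vitamin D3) and IL10 (interleukin 10), named TolDC, and such tolerogenic cells given LPS. The series concerns tolerogenic dendritic cells and acute kidney injury. All groups share the genotype, the growth from marrow and the CD11c enrichment. The sources used here do not state doses, the length of stimulation or how many animals stand behind a library. Since no label ties the libraries of a group to separate mice or cultures, the p-values below speak of the spread among these libraries, and that spread may be technical.

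DNA methylation at cytosines is laid down anew by DNMT3A and copied at replication by DNMT1 with UHRF1, while TET enzymes oxidise methylcytosine, a step towards its removal. EZH1 and EZH2 are alternative catalytic subunits of Polycomb repressive complex 2 (PRC2), which methylates a lysine in the tail of histone H3 and so marks silenced genes. KDM6A and KDM6B, also known as UTX and JMJD3, take methyl groups off the same lysine. Like TET enzymes, they need oxygen, iron and 2-oxoglutarate. In macrophages and dendritic cells KDM6B is known as a gene switched on by Toll-like receptor signalling, and TET2 as a restraint on inflammatory cytokines.

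The libraries held 21844405 to 41764975 reads assigned to genes, so that 3 counts corresponded to 0.0718 to 0.137 CPM (read counts relative to the scaled library total). Dendritic cell markers were present in every library, with all 10 listed genes detected in each group and a summed level of 7502 to 12654 CPM. Itgax, which encodes CD11c, was at 1250.5 to 2253 CPM. Flt3, the receptor of conventional dendritic cell precursors, was at most at 1.75 CPM. Zbtb46, a factor of conventional dendritic cells, was at 29.4 to 33.7 CPM in BMDC and 60.4 to 69.2 CPM in BMDC with LPS. In TolDC it was at 14.5 to 18.6 CPM and with LPS at 14.7 to 18.0 CPM. The listed dendritic cell markers differed between the cell types in both directions. With LPS, Batf3 was at 165 to 171 CPM in BMDC and 63.0 to 66.2 CPM in TolDC, and H2-Ab1 at 494 to 500 and 1174 to 1405.5 CPM. The 4 libraries numbered 1 stood apart from those numbered 2 and 3. All 9 neutrophil markers had counts in each group, with sums of 600, 330, 123 and 167 CPM in the libraries numbered 1 of BMDC, BMDC with LPS, TolDC and TolDC with LPS. In the libraries numbered 2 and 3 the neutrophil sums ran from 414 to 2510 CPM. The 7 mast cell and basophil markers summed to 29.2, 29.4, 72.3 and 71.5 CPM in the libraries numbered 1 and to 109 to 262 CPM in the others. The 8 macrophage and monocyte markers summed to 1865 to 1928 CPM in BMDC, 1031 to 1452 CPM in BMDC with LPS, 913 to 931 CPM in TolDC and 1513 to 1921 CPM in TolDC with LPS. Much of the BMDC sum was Ccr2, at 1000 to 1092 CPM there and at 46.2 to 51.4 CPM in TolDC. The markers did not move together. Adgre1 was at 31.3 to 40.8 CPM in BMDC and 123 to 127 CPM in TolDC, and Mertk at 131 to 162 and 54.2 to 60.0 CPM. The part of other cells in the values below was not tested, and in bulk RNA fewer cells of a type and less RNA per cell cannot be told apart.

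With LPS in BMDC, Tet1, Tet2, Kdm6b, Ezh1 and Ezh2 rose and Dnmt3a and Kdm6a fell. These are 5 higher and 2 lower of 8 genes, while 36.7% of all 13141 genes tested were called higher and 36.4% lower at an adjusted p below 0.05. With LPS in TolDC, Tet1, Tet2, Kdm6b and Ezh1 rose and Dnmt3a, Kdm6a and Ezh2 fell, 4 higher and 3 lower against 35.4% and 35.9% of all genes. Tet3 passed the test in neither cell type. In TolDC against BMDC without LPS, 5 genes (Tet2, Tet3, Kdm6a, Kdm6b and Ezh1) were lower and 0 higher, where 30.4% of all genes were lower and 32.0% higher. With LPS present, Dnmt3a was higher in TolDC and 6 genes (Tet2, Tet3, Kdm6a, Kdm6b, Ezh1 and Ezh2) were lower, where 34.3% of all genes were higher and 33.7% lower. The test of the difference between the LPS responses called 4 of 8 genes. The response in TolDC minus that in BMDC was above 0 for Dnmt3a and below 0 for Tet2, Ezh1 and Ezh2, and 20.4% and 24.0% of all genes were called above and below 0. A call is common in these data, so the counts do not set these genes apart from others. The comparisons share libraries and are not independent of one another.

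**Figure D1:**
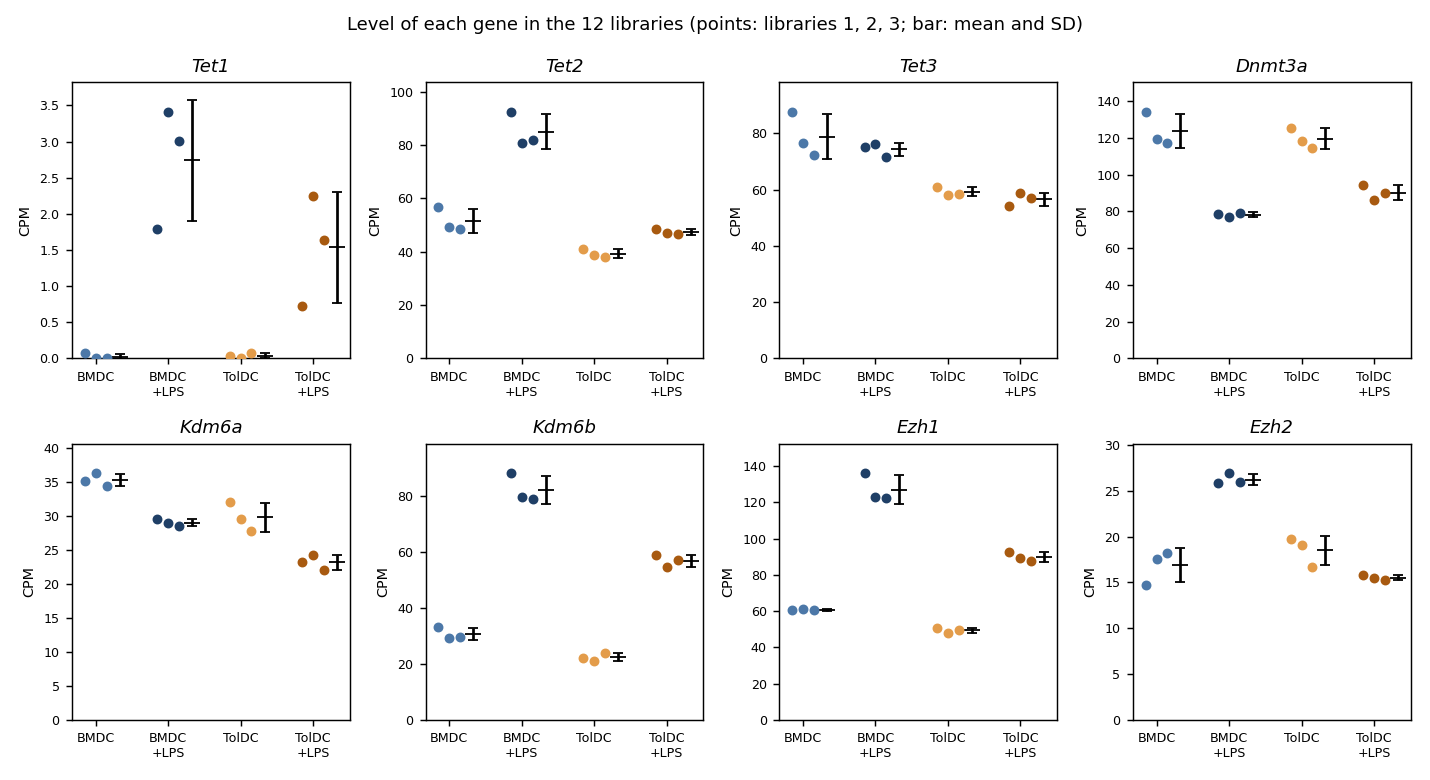
Level of each of the 8 genes in CPM (vertical axis, from 0) in the 12 libraries of the 4 groups; points are libraries 1, 2 and 3 from left to right, and bars are the mean and SD. Tet1 lies at or near 0 in the 6 libraries without LPS, Ezh1 and Kdm6b are higher in all 6 libraries with LPS than in any without, and Ezh2 is highest in BMDC with LPS.

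Dnmt3a, the enzyme that sets DNA methylation anew, was lower with LPS in both cell types, and less so in TolDC. The gene (ENSMUSG00000020661) lies on the plus strand of chromosome 12, at 3806007 to 3914443 of GRCm38. It was at 134.1, 119.6 and 117.2 CPM in the BMDC libraries numbered 1, 2 and 3 and at 78.7, 76.7 and 79.1 CPM in BMDC with LPS. In TolDC it was at 125.6, 118.4 and 114.3 CPM, and in TolDC with LPS at 94.4, 86.2 and 90.0 CPM. The 2 groups without LPS overlapped, every LPS library lay below them, and BMDC with LPS lay below TolDC with LPS without overlap. The log2 change with LPS was −0.66 ± 0.052 (SE) in BMDC (edgeR adjusted p = 1.03e-09) and −0.41 ± 0.051 in TolDC (8.36e-07). The response in TolDC exceeded that in BMDC by 0.26 ± 0.072 on the log2 scale (edgeR adjusted p = 0.00727), and with LPS the level in TolDC was higher by 0.21 ± 0.052 (0.00170). Without LPS the cell types differed by −0.051 ± 0.050 (adjusted p = 0.397), which was not called. Dnmt3aos, a noncoding gene that overlaps exons of Dnmt3a on the opposite strand, was at 1.69 to 1.85 CPM in BMDC and at most at 0.490 CPM in the other groups. The counts were taken by strand.

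Tet1, a dioxygenase best known from embryonic stem cells, was close to the counting limit without LPS and was detected in every library with LPS. The gene (ENSMUSG00000047146) lies on the minus strand of chromosome 10, at 62804570 to 62908996. The BMDC libraries held 2, 0 and 0 reads (0.0706, 0 and 0 CPM), and those with LPS 51, 74 and 67 reads (1.79, 3.41 and 3.01 CPM). The TolDC libraries held 1, 0 and 2 reads (0.0397, 0 and 0.0705 CPM), and those with LPS 22, 67 and 66 reads (0.718, 2.25 and 1.64 CPM). Libraries with and without LPS did not overlap in either cell type, and the library numbered 1 was the lowest of each LPS group. Summed over libraries, 192 reads against 2 gave a 109-fold higher level in BMDC with LPS (95% interval 29.9 to 909), and 155 against 3 a 40.05-fold higher level in TolDC with LPS (13.4 to 196). These intervals cover counting error alone. The fitted log2 changes were 6.56 ± 0.74 in BMDC (edgeR adjusted p = 1.83e-06) and 5.17 ± 0.75 in TolDC (2.62e-05), and with so few unstimulated reads their size depends on the fit. Without the 4 libraries numbered 1 the BMDC value was 9.47, against 0 reads in the remaining unstimulated BMDC libraries.

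The levels of Tet1 with LPS overlapped between the cell types, and the log2 difference of TolDC from BMDC with LPS was −0.81 ± 0.35 (edgeR adjusted p = 0.0536), just outside the threshold. It passed with limma-voom (−0.86, adjusted p = 0.0364), with RLE scaling (−0.83, 0.0494) and with a replicate block (−0.86, 6.25e-04). It also passed without BMDC with LPS replicate 1 (−1.06, 0.0115), without TolDC with LPS replicate 2 (−1.15, 0.0106) and without the 4 libraries numbered 1 (−0.75, 7.57e-04). It did not pass with DESeq2 (−0.85, 0.0669), without a filter on low counts (−0.79, 0.114) or with the compared groups alone (−0.82, 0.121), and the adjusted p over all alternatives ran from 6.25e-04 to 0.179. The libraries numbered 1 were also those with low neutrophil and mast cell markers, whose part in this value was not tested. The difference between the LPS responses was −1.39 ± 1.95 (adjusted p = 0.604), not called and with an error larger than its size.

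Tet2, the most studied of the family in myeloid cells, rose with LPS in both cell types, and by more in BMDC. The gene (ENSMUSG00000040943) lies on the minus strand of chromosome 3, at 133463679 to 133545139. Its levels were 56.7, 49.2 and 48.4 CPM in BMDC and 92.4, 80.6 and 81.8 CPM in BMDC with LPS. They were 41.0, 38.9 and 37.9 CPM in TolDC and 48.4, 47.0 and 46.5 CPM in TolDC with LPS. BMDC with LPS was above all other libraries, TolDC was below all others, and stimulated TolDC overlapped the lower end of unstimulated BMDC at 48.4 CPM. The log2 change with LPS was 0.73 ± 0.060 in BMDC (edgeR adjusted p = 4.59e-09) and 0.27 ± 0.062 in TolDC (8.89e-04), and the difference between the responses was −0.46 ± 0.087 (3.56e-04). TolDC was lower than BMDC both without LPS (log2 difference −0.39 ± 0.063, adjusted p = 3.21e-05) and with LPS (−0.85 ± 0.060, 7.91e-10).

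Tet3, the third dioxygenase, was lower in TolDC than in BMDC, and its changes with LPS were not called. The gene (ENSMUSG00000034832) lies on the minus strand of chromosome 6, at 83362373 to 83459084. It was at 87.6, 76.4 and 72.2 CPM in BMDC, 75.1, 76.1 and 71.7 CPM in BMDC with LPS, 61.0, 58.2 and 58.3 CPM in TolDC and 54.1, 58.7 and 57.0 CPM in TolDC with LPS. All 6 BMDC libraries were above all 6 TolDC libraries, and within each cell type the groups with and without LPS overlapped. TolDC differed from BMDC by −0.41 ± 0.057 without LPS (edgeR adjusted p = 5.76e-06) and −0.39 ± 0.057 with LPS (8.12e-06). The log2 changes with LPS were −0.084 ± 0.057 in BMDC (adjusted p = 0.191) and −0.065 ± 0.058 in TolDC (0.324). They passed when libraries were scaled by their totals alone (−0.16 in both, adjusted p = 0.0269 and 0.0259), and that in BMDC passed without BMDC replicate 3 (−0.14, 0.0405). Over all alternatives the adjusted p ran from 0.0269 to 0.956 in BMDC and from 0.0259 to 0.815 in TolDC.

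Ezh1 and Ezh2, which encode the alternative catalytic subunits of PRC2, responded differently to LPS in TolDC. EZH2 is typical of dividing cells, in which its gene is driven by E2F factors, whereas EZH1 is typical of resting cells. The RefSeq promoter windows of both genes (GRCm38.p6, 250 bases before to 50 after the annotated start, gene strand) are shown for that contrast. That of Ezh2 is chr6:47594981-47595280 and that of Ezh1 chr11:101226414-101226713, both on the minus strand. Capitals mark a match to the E2F-like letters TTTNNCGC, searched on both strands.
Ezh2: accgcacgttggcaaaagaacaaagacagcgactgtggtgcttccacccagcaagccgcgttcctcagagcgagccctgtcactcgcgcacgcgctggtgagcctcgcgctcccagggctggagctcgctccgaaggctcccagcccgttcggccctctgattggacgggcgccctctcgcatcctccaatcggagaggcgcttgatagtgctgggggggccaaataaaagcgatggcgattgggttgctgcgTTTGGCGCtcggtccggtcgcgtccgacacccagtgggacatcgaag
Ezh1: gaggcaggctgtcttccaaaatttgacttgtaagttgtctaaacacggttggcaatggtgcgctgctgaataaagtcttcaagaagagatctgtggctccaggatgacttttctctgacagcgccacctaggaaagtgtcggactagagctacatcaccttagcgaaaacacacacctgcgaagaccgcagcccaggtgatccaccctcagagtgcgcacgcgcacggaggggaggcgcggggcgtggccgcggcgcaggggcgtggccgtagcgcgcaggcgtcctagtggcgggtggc
The Ezh2 window held the single match, TTTGGCGC, beginning at base 4 counted from the annotated start, and the Ezh1 window held none. Of 32851 RefSeq promoter windows of the same length, 5.17% held this motif. RefSeq windows were matched for 7 of the 8 genes (9 windows, Kdm6b having no entry), and none of the others held it. A second set of letters, GGGNNTTNC, which resembles a kB site, was in 0 of the 9 windows and in 15.2% of all. The Ezh2 and Ezh1 windows held 31 and 23 CpG dinucleotides, above the upper quartile of 20 over all windows. These are matches of letters only, and binding was not measured.

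Ezh1 rose with LPS in both cell types. The gene (ENSMUSG00000006920) lies on the minus strand of chromosome 11, at 101191115 to 101226463. It was at 60.5, 61.2 and 60.5 CPM in BMDC and 136.1, 122.9 and 122.3 CPM in BMDC with LPS, and at 50.6, 47.9 and 49.8 CPM in TolDC and 92.7, 89.3 and 87.7 CPM in TolDC with LPS. No libraries of any 2 groups overlapped, and the order from the top was BMDC with LPS, TolDC with LPS, BMDC and TolDC. The log2 change was 1.07 ± 0.045 in BMDC (edgeR adjusted p = 9.07e-14) and 0.86 ± 0.045 in TolDC (3.04e-12). The difference between the responses, −0.20 ± 0.063, passed (adjusted p = 0.0134), but not when the libraries numbered 2 and 3 of each group were summed into 1 (−0.22, adjusted p = 0.0502; range over all alternatives 0.00194 to 0.0502). TolDC was lower without LPS (log2 difference −0.30 ± 0.046, adjusted p = 1.79e-05) and with LPS (−0.50 ± 0.043, 7.31e-09).

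Ezh2 rose with LPS in BMDC and fell in TolDC. The gene (ENSMUSG00000029687) lies on the minus strand of chromosome 6, at 47530139 to 47595341. Its levels were 14.7, 17.6 and 18.2 CPM in BMDC and 25.8, 26.9 and 25.9 CPM in BMDC with LPS. They were 19.7, 19.1 and 16.7 CPM in TolDC and 15.8, 15.5 and 15.2 CPM in TolDC with LPS. BMDC with LPS lay above every other library, stimulated TolDC lay below unstimulated TolDC, and unstimulated BMDC overlapped both TolDC groups. The log2 change was 0.64 ± 0.076 in BMDC (edgeR adjusted p = 4.08e-07) and −0.25 ± 0.077 in TolDC (0.00661). The difference between the responses was −0.89 ± 0.108 (edgeR adjusted p = 2.33e-06), the largest of the 4 that were called among these genes. Without LPS the cell types differed by 0.13 ± 0.078 (adjusted p = 0.145), a value that passed without TolDC replicate 3 (0.21, 0.0368) and was −0.0061 without the libraries numbered 1 (adjusted p = 0.951). With LPS, TolDC was lower, with a log2 difference of −0.76 ± 0.075 (5.10e-08).

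Where Ezh2 was higher, in BMDC with LPS, a list of 27 cell division genes was lower, with a summed level of 727 to 839 CPM in BMDC and 438 to 518 CPM in BMDC with LPS. In TolDC the same sum was 1064 to 1083 CPM without and 319 to 354 CPM with LPS. Of these 27 genes, 3 rose and 23 fell with LPS in BMDC (median log2 change −1.18, against −0.00029 over all genes), and 0 rose and 26 fell in TolDC (median −2.45, against −0.0017). Of all genes tested, 36.7% rose and 36.4% fell in BMDC, and 35.4% rose and 35.9% fell in TolDC. The difference between the responses was called below 0 for 24 of the 27 genes and above 0 for 1 (median −1.19). Over all genes 24.0% were called below and 20.4% above 0 (median −0.0095). With LPS, 21 of the 27 were lower in TolDC than in BMDC and 2 higher, against 33.7% and 34.3% of all genes. Ezh2 was below 0 in both of these comparisons. The G1 cyclins Ccne1 and Ccne2, which start DNA replication, were among the 3 that rose in BMDC, by 0.74 ± 0.067 and 0.84 ± 0.097 on the log2 scale. In TolDC, Ccne1 had a log2 change of −1.30 ± 0.071 (edgeR adjusted p = 5.93e-12) and Ccne2 of −0.79 ± 0.11 (4.91e-06). The third, Tyms, changed by 0.34 ± 0.084 in BMDC and by −0.27 ± 0.083 in TolDC (edgeR adjusted p = 0.00142 and 0.00710). The responses of all 3 genes had the same signs as those of Ezh2. The E2F genes of the list did not share these signs. E2f1 changed by −0.33 ± 0.069 in BMDC and −0.034 ± 0.064 in TolDC, the latter not called. With LPS, E2f1 was higher in TolDC than in BMDC by 0.61 ± 0.067. E2f2 fell in both, by 1.92 on the log2 scale in BMDC and by 2.51 in TolDC. The part of E2F factors in the values of Ezh2 was not tested.

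Kdm6b, the inducible demethylase JMJD3, rose with LPS in both cell types. The gene (ENSMUSG00000018476) lies on the minus strand of chromosome 11, at 69398508 to 69413675. It was at 33.1, 29.3 and 29.8 CPM in BMDC, 88.2, 79.6 and 78.9 CPM in BMDC with LPS, 22.2, 21.0 and 23.9 CPM in TolDC and 58.9, 54.6 and 57.3 CPM in TolDC with LPS. No libraries of any 2 groups overlapped, and each TolDC group was below its BMDC counterpart. The log2 change was 1.42 ± 0.059 in BMDC (edgeR adjusted p = 7.61e-14) and 1.35 ± 0.061 in TolDC (3.34e-13), and the difference of −0.073 ± 0.084 was not called (0.518). TolDC was lower without LPS (log2 difference −0.46 ± 0.064, adjusted p = 4.94e-06) and with LPS (−0.53 ± 0.055, 9.52e-08).

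Kdm6a, the X-linked demethylase UTX, fell with LPS. The gene (ENSMUSG00000037369) lies on the plus strand of chromosome X, at 18162575 to 18279936. It was at 35.2, 36.3 and 34.4 CPM in BMDC, 29.6, 28.9 and 28.5 CPM in BMDC with LPS, 32.0, 29.5 and 27.8 CPM in TolDC and 23.2, 24.3 and 22.0 CPM in TolDC with LPS. Unstimulated BMDC was highest and stimulated TolDC lowest, each without overlap, while BMDC with LPS and unstimulated TolDC overlapped. The log2 change with LPS was −0.28 ± 0.056 in BMDC (edgeR adjusted p = 1.69e-04) and −0.37 ± 0.056 in TolDC (1.17e-05), with a difference of −0.083 ± 0.079 that was not called (0.430). TolDC was lower than BMDC without LPS (−0.25 ± 0.055, 8.22e-04) and with LPS (−0.33 ± 0.057, 5.15e-05). Uty, its Y-linked relative, had mean levels of 16.3 to 19.0 CPM over the groups and was called in neither LPS response (log2 change 0.11 ± 0.063 and 0.0050 ± 0.063).

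**Figure D2:**
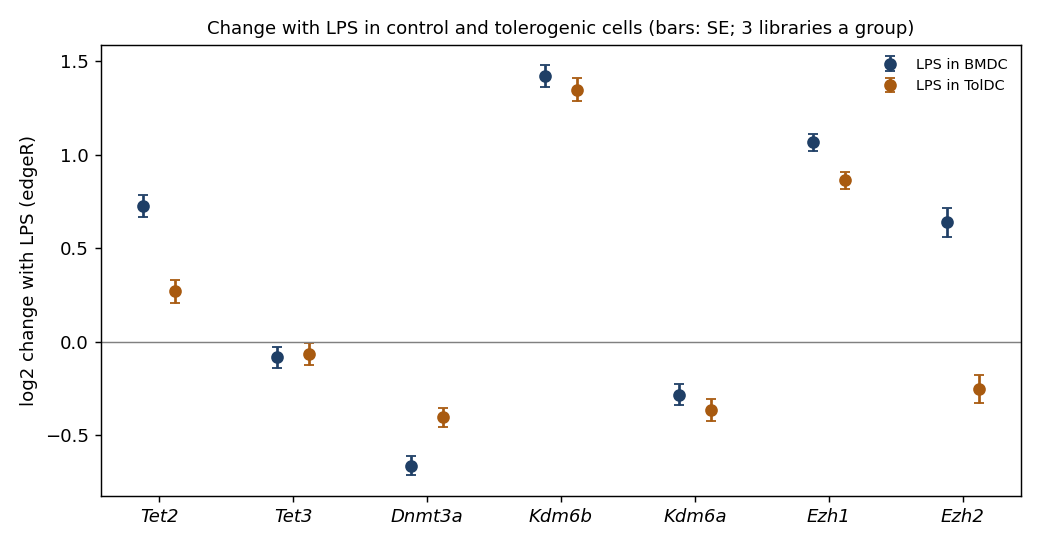
Log2 change with LPS (vertical axis, edgeR) in BMDC and in TolDC for 7 of the genes; points are fitted values and bars their SE from 3 libraries a group, and Tet1 is left out because its fit rests on 2 and 3 unstimulated reads. The paired points of Tet2, Dnmt3a, Ezh1 and Ezh2 are apart by −0.46, 0.26, −0.20 and −0.89, and those of Ezh2 lie on opposite sides of 0.

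Levels of different genes were compared only per length of the gene, as CPM per kilobase of merged exons. On that scale Ezh1 was the highest of the 8 genes in BMDC (8.16), in BMDC with LPS (17.1) and in TolDC with LPS (12.1), and Dnmt3a was the highest in TolDC (7.18, with Ezh1 at 6.64). Tet1 was lowest in all groups, at most at 0.177. These places were the same with the length of the longest transcript, while some of the others changed. In BMDC Ezh2 moved from place 7 to place 4 and Kdm6b from place 4 to place 7.

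Within a library, the ratio of Ezh2 to Ezh1 per kilobase was 0.308 without and 0.230 with LPS in BMDC, and 0.416 and 0.192 in TolDC (group means of log2 ratios turned back to ratios, with no test). The log2 ratio was −1.70 ± 0.16 (SD, n = 3) in BMDC, −2.12 ± 0.11 in BMDC with LPS, −1.27 ± 0.14 in TolDC and −2.38 ± 0.015 in TolDC with LPS. TolDC thus had the highest ratio without LPS and the lowest with it. In BMDC the ratio was lower with LPS although Ezh2 rose, Ezh1 having the larger log2 change. The ratio of Kdm6b to Kdm6a went from 1.05 to 3.41 in BMDC and from 0.905 to 2.97 in TolDC, log2 differences of 1.70 and 1.71. The ratio of Tet2 to Tet3, added after the values were seen, went from 0.647 to 1.13 in BMDC, and in TolDC the log2 difference with LPS was 0.34 against 0.80 in BMDC. With longest transcripts as lengths the sizes change (Ezh2 to Ezh1 in BMDC 0.417, Kdm6b to Kdm6a 0.776), while the differences between groups of log2 ratios do not depend on length.

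**Figure D3:**
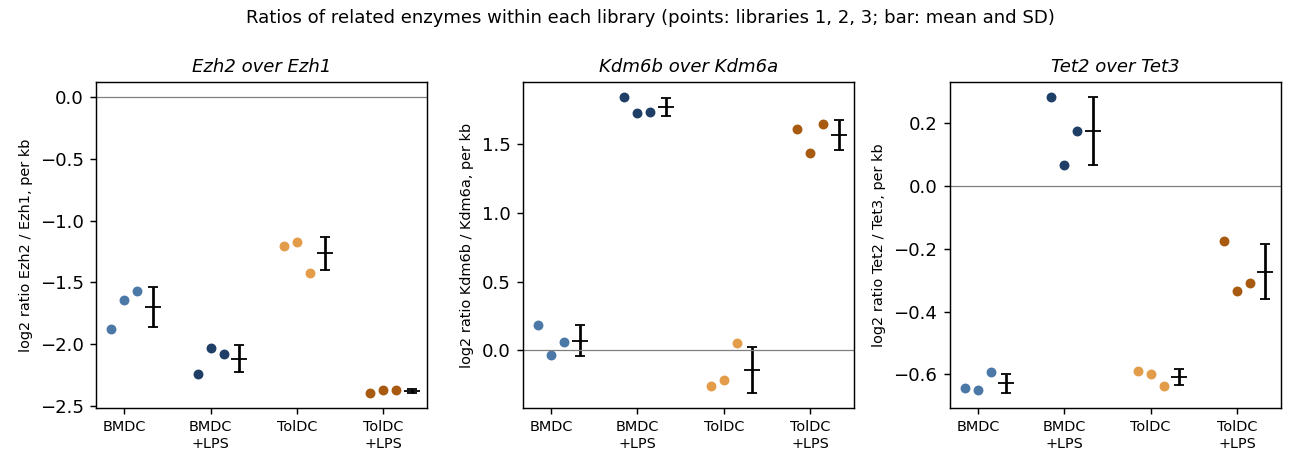
Log2 ratio per kilobase (vertical axes, on different scales) of Ezh2 to Ezh1, Kdm6b to Kdm6a and Tet2 to Tet3 in each of the 12 libraries; points are libraries 1, 2 and 3, bars are the mean and SD, and the grey line marks equal levels. The Ezh2 to Ezh1 ratio is highest in TolDC and lowest in TolDC with LPS, and Kdm6b to Kdm6a is above 0 in all 6 LPS libraries.

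The other genes of the DNA methylation machinery were read from a list of 17, of which 16 were tested. With LPS 11 rose and 2 fell in BMDC (median log2 change 0.44), and 7 rose and 6 fell in TolDC (median 0.11). Over all genes 36.7% were called higher and 36.4% lower with LPS in BMDC, and 35.4% and 35.9% in TolDC, so the counts in TolDC were near those of all genes. Uhrf1, the partner that brings DNMT1 to newly replicated DNA, rose in BMDC from 22.1 ± 1.58 to 38.2 ± 1.43 CPM and fell in TolDC from 29.6 ± 2.13 to 9.01 ± 0.908 CPM, and its responses differed by −2.50 ± 0.105 on the log2 scale (edgeR adjusted p = 3.06e-12). Dnmt1, the maintenance methyltransferase, did likewise on a smaller scale (log2 change 0.17 ± 0.037 in BMDC and −0.38 ± 0.037 in TolDC, difference −0.56 ± 0.053, adjusted p = 1.13e-07). Dnmt3l, a cofactor of DNMT3A without catalytic activity of its own, rose from 1.64 ± 0.159 to 7.63 ± 0.981 CPM in BMDC and from 2.14 ± 0.350 to 10.5 ± 0.289 CPM in TolDC. Dnmt3b, the other de novo methyltransferase, had means of 0.520 to 1.11 CPM and was called in neither LPS response. Gadd45b, linked to stress signalling and DNA demethylation, had the largest rise of the list, by 2.71 ± 0.048 in BMDC and 3.40 ± 0.052 in TolDC, and Hells, a chromatin remodeller needed for DNA methylation, fell (log2 change −0.85 ± 0.090 and −1.50 ± 0.090).

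The difference between the responses was also read in the PRC2 partners of EZH1 and EZH2, where 7 of 11 were called below 0 and 1 above (median −0.25, against −0.0095 over all genes), where 24.0% and 20.4% of all genes were called. With LPS 6 rose and 1 fell in BMDC (median 0.30), and 4 rose and 4 fell in TolDC (median −0.041), the latter near the 35.4% and 35.9% of all genes. Suz12, a core subunit, rose in BMDC from 71.7 ± 0.459 to 113 ± 5.87 CPM and had means of 65.9 and 70.4 CPM in TolDC without and with LPS (difference between the responses −0.56 ± 0.056, edgeR adjusted p = 2.33e-07). Eed, the subunit that reads the mark, was called in neither LPS response (0.054 ± 0.040 and −0.060 ± 0.040). Aebp2, an accessory subunit, rose in BMDC by 0.68 ± 0.042 and in TolDC its log2 change was −0.13 ± 0.043 (adjusted p = 0.0117). Rbbp7, a histone-binding subunit shared with other complexes, fell in both (−0.52 ± 0.037 and −0.74 ± 0.038), and Phf1, another accessory subunit, had the largest rise in TolDC (0.90 ± 0.062).

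**Figure D4:**
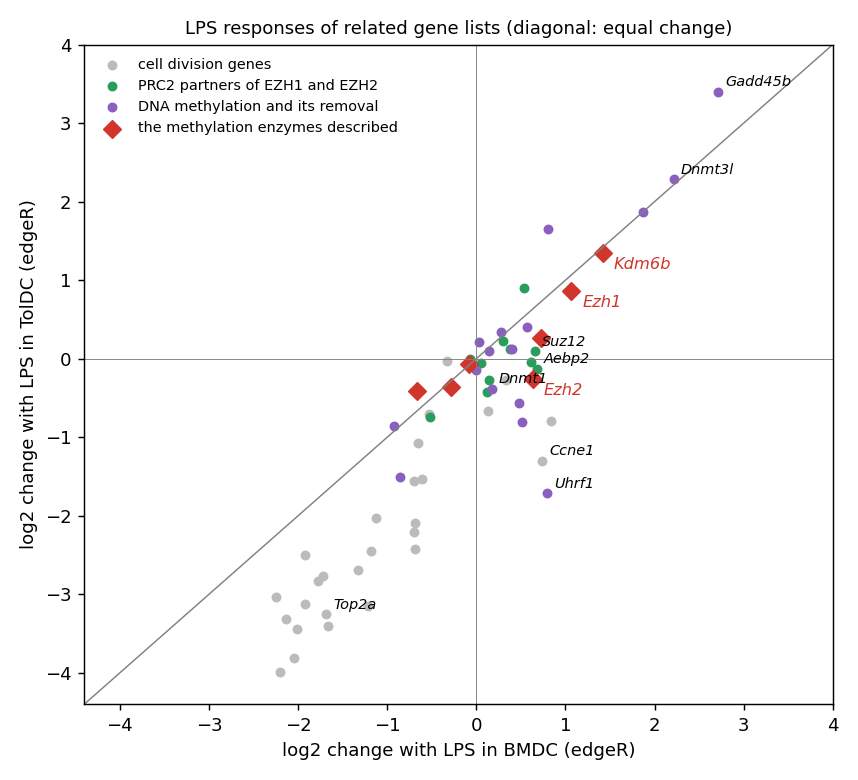
Log2 change with LPS in BMDC (horizontal axis) and in TolDC (vertical axis) for 7 of the 8 enzymes (Tet1, at 6.56 and 5.17, lies outside the axes), 11 PRC2 partners, 16 genes of DNA methylation and 27 cell division genes; each point is 1 gene and the diagonal marks equal changes. Ezh2, Ccne1, Uhrf1 and Dnmt1 lie to the right of 0 on the horizontal axis and below 0 on the vertical axis.

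KMT2 complexes methylate another lysine of histone H3 at active genes, and those with KMT2C or KMT2D hold KDM6A. A list of 14 genes of KMT2 and related complexes, 13 of them tested, gave 10 rises and 1 fall in BMDC (median 0.26). In TolDC it gave 5 rises and 4 falls (median 0.096). All genes gave 36.7% rises and 36.4% falls in BMDC and 35.4% and 35.9% in TolDC, near which the TolDC counts lie. Kmt2a and Kmt2b, catalytic subunits, rose in both, Kmt2a by 1.08 ± 0.072 in BMDC and 0.67 ± 0.071 in TolDC. Kmt2d rose by 0.56 ± 0.055 in BMDC and 0.17 ± 0.055 in TolDC. Kmt2c rose by 0.26 ± 0.070 in BMDC, and its change in TolDC (0.14 ± 0.071) was not called. The difference between the responses was called below 0 for 7 of 13 genes and above 0 for 0 (24.0% and 20.4% of all genes), with Men1 at −0.62 ± 0.075 and Setd1a at −0.61 ± 0.077. A list of 19 genes covered the supply and turnover of 2-oxoglutarate and S-adenosylmethionine, the small molecules these enzymes consume, and not only genes that make them. Of the 19, 16 fell and 2 rose in each cell type (medians −0.52 in BMDC and −0.65 in TolDC). Over all genes 36.4% fell in BMDC and 35.9% in TolDC. Idh1, the cytosolic isocitrate dehydrogenase that makes 2-oxoglutarate, fell from 423 ± 9.10 to 105 ± 4.06 CPM in BMDC and from 547 ± 17.2 to 235 ± 6.67 CPM in TolDC. Idh2, its mitochondrial relative, fell by 1.77 on the log2 scale in BMDC and by 1.52 in TolDC.

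Across the 12 libraries the genes whose log2 CPM followed a member most closely were sought among 9372 genes (9373 for Tet1) with a mean of at least 5 CPM. Pearson's r is given as a description, since the libraries share the LPS and cell type groups. For Kdm6b these were Zc3hav1, an antiviral RNA-binding protein, and Ell2, a transcription elongation factor (both r = 0.996), and for Ezh1 Atxn7l1 (0.998) and Zfp809 (0.997). For Tet1 they were Ifi204, an interferon-inducible gene, and Lox, a collagen cross-linking enzyme (both 0.985), and for Tet2 Alpk2 and Ino80d (both 0.995). For Dnmt3a they were Arrb1, an arrestin (0.995), and Ncbp2 (0.991), and for Ezh2 Tubgcp2, of the microtubule-nucleating complex (0.976), and Plk4, the kinase of centriole duplication (0.961). Kdm6a had Tigar (0.981) and Xpo7 (0.978), and Tet3 Iqgap1 (0.975) and Pno1 (0.974). Among the members, the closest pair was Kdm6b and Ezh1 (0.993), and Dnmt3a ran opposite to Tet1 (−0.949) and Ezh1 (−0.934). Ezh1 and Ezh2 had an r of 0.563.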

How the data were processed

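Messenger RNA was sequenced from 12 samples in 4 groups of 3 (BMDC and TolDC, each with and without LPS), grouped by their labels. Per the labels' protocols, the ISOLATE II RNA Mini Kit gave the RNA and Illumina's Stranded mRNA Prep Ligation the libraries. The submitters' processing notes name cutadapt, STAR, edgeR, limma and the build mm10 (GRCm38), with no versions. The authors deposited read counts for each gene without normalization, in 3 columns by strand. Column 4, with 35.2 to 37.3 times the total of column 3, was used, and 79.3% to 80.6% of counted reads were assigned to genes. Reads matching several places are not in these counts. Of 31054 identifiers, 31011 matched GENCODE M21, which gave symbols, positions and lengths.

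Genes were filtered with filterByExpr, scaled by TMM (0.945 to 1.04) and fitted with a robust quasi-likelihood model of group means over all 12 libraries (edgeR 4.0.16, R 4.3.3), with Benjamini-Hochberg adjustment over 13141 genes and a threshold of 0.05. Values after ± are SE for log2 changes and SD (n = 3) for CPM. The script was tested on simulated data: of 100 genes changed by 0.5 on the log2 scale, 70% were recovered for LPS in BMDC and 54% for the difference between responses. The simulation changed far fewer genes than were called in these data and held no shared deviation of the libraries numbered 1. Its shares therefore check the script and do not give the recovery in these data. The members and the gene lists were chosen with earlier results of these data known. List genes named are Dnmt1, Dnmt3b, Dnmt3l, Uhrf1, Uty, Eed and Suz12 and, per list and contrast, genes from the 2 largest called rises and falls with at least 5 CPM. Kmt2c, Kmt2d, E2f1, E2f2 and Tyms were added after the values were seen. Alternatives were DESeq2 1.42.0, limma-voom (limma 3.58.1), RLE or no scaling, other filters, counts without strand, the compared groups alone, a replicate block, leaving out each library or the 4 numbered 1, and, added after seeing the data, summing libraries 2 and 3 and another gene length. Libraries numbered 2 and 3 differed by 1.35 to 2.30 in chi-square per gene (1 is counting noise) and were kept apart; pairs with library 1 differed by 5.16 to 11.6. Deviations from group means correlated at r = 0.091 to 0.466 in the 18 same-numbered pairs. Since 1 pair was under the threshold of 0.1, the numbers were not taken as pairing. Yet for 10 of the 12 libraries the best correlated library of another group had the same number. Pairs of libraries numbered 1 had r from 0.330 to 0.466, a shared deviation for which the main fit holds no term.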

Additional observations from a re-analysis of the deposited data

Results flagged for a closer look

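For 4 of the 8 genes the LPS response differed between TolDC and BMDC by a test of the difference itself (edgeR interaction, adjusted over all genes). The log2 change in TolDC minus that in BMDC was −0.46 for Tet2, 0.26 for Dnmt3a, −0.20 for Ezh1 and −0.89 for Ezh2. Tet2 and Ezh1 rose in both cell types and by less in TolDC, Dnmt3a fell in both and by less in TolDC, and Ezh2 rose in BMDC and fell in TolDC. The 4 comparisons rest on the same 12 libraries. That of Ezh1 did not pass when the libraries numbered 2 and 3 of each group were summed (−0.22, edgeR adjusted p = 0.0502).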

How the results depend on the processing

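Over all alternatives, the number of members called stayed within 1.5 times the main count in each of the 5 comparisons (7 or 8, 7 or 8, 5 or 6, 7 or 8, and 3 or 4 of 8), as did the number of all genes called (4418 to 6543 for the difference between responses). Changes of sign concerned only values not called. The difference between the LPS responses of Tet3 was −0.0044 with library totals alone, and ran from −0.061 to 0.086 as single libraries were left out. TolDC against BMDC without LPS ran from −0.11 to 0.011 for Dnmt3a and from −0.22 to 3.25 for Tet1 as single libraries were left out, and was −0.0061 for Ezh2 without the libraries numbered 1. The log2 ratio of Kdm6b to Kdm6a in BMDC was −0.040 with reads counted without strand. With a replicate block, 8 of 8 members were called in TolDC against BMDC with LPS, since Tet1 passed (−0.86, adjusted p = 6.25e-04), and the block changed no other member's call. Depth limits Tet1 without LPS, at 0 to 2 reads a library. A fit with only the compared groups cannot give the difference between responses and was not run for it.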

Other observations

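Further chromatin genes were read from the same fit, in which 36.7% of all genes rose and 36.4% fell with LPS in BMDC, and 35.4% and 35.9% in TolDC. Of 18 genes of Polycomb repressive complex 1, which reads the mark PRC2 sets, 12 rose and 2 fell in BMDC (median log2 change 0.49; 4 fell without the libraries numbered 1), and 10 rose and 0 fell in TolDC (median 0.32). Rybp, an adaptor of noncanonical forms of the complex, rose by 1.22 ± 0.11 and 1.36 ± 0.11. Among 9 readers of methylated DNA, 4 rose and 3 fell in BMDC and 4 rose and 4 fell in TolDC, shares near those of all genes. Mbd1 rose in both (1.07 ± 0.040 and 0.64 ± 0.040).

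Of 20 other histone demethylases tested, 12 rose and 3 fell in BMDC, and 8 rose and 3 fell in TolDC, where the rises were near the 35.4% of all genes. Kdm4a, which acts on another lysine of histone H3, had the largest rise, from 89.8 ± 4.998 to 288 ± 12.5 CPM in BMDC and from 94.96 ± 4.95 to 250.35 ± 11.1 CPM in TolDC. Of 24 other histone methyltransferases, 12 rose and 4 fell in BMDC, and 10 rose and 8 fell in TolDC, again near the shares of all genes. Suv39h2, an enzyme of heterochromatin, rose in BMDC from 3.42 ± 0.480 to 5.17 ± 0.475 CPM and fell in TolDC from 3.17 ± 0.095 to 1.25 ± 0.187 CPM, a difference between responses of −1.93 ± 0.21 on the log2 scale (edgeR adjusted p = 5.14e-07). Setd7 rose in both (0.87 ± 0.051 and 0.52 ± 0.051).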
